A study of Mus musculus with 16 samples.

Results

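Fatty acid oxidation was followed in mouse skin through 32 genes taken by symbol from the deposited table. They were 4 genes of the carnitine shuttle, 5 acyl-CoA dehydrogenases, 6 genes of the later mitochondrial steps, 4 isomerases and reductases for unsaturated chains, 3 of electron transfer, 6 of peroxisomal oxidation, 2 thioesterases and 2 transcriptional coactivators. Ppargc1a and Ppargc1b, the coactivators, are not enzymes themselves. All 32 were found among the 32078 genes of the table, and all 32 passed the filter on low values (10 or more normalised reads in 2 or more libraries), as did 19189 genes in all.

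The RNA came from whole skin of 7-week-old mice, in 16 libraries that form 8 groups of 2. The groups of SDS alone were SDS_D0, SDS_D1, SDS_D3 and SDS_D5, which are days 0, 1, 3 and 5 of sodium dodecyl sulfate, a detergent that irritates skin. The groups SDS_D0_Topsym, SDS_D1_Topsym, SDS_D3_Topsym and SDS_D5_Topsym had the same days with Topsym, known as a preparation of the glucocorticoid fluocinonide, which the labels do not state. The labels give topical treatment for 4 days although the groups run to day 5, and they name no strain, sex or number of animals. The sources used here do not say when SDS or Topsym was first applied, and the treatment behind SDS_D0_Topsym is unknown. Every group carries SDS in its name, and there is no group without SDS at days 1, 3 or 5, so SDS and time cannot be told apart. The deposited design text describes an experiment on sorted hair follicle stem cells, which matches none of these libraries.

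In beta-oxidation, fatty acids are bound to coenzyme A, carried into the mitochondrion as carnitine esters, and shortened step by step by a dehydrogenase, a hydratase, a second dehydrogenase and a thiolase. Peroxisomes run a similar chain that starts with an oxidase and handles very long and branched fatty acids. Many genes of both chains are known targets of the PPAR nuclear receptors, and the coactivators of the PGC-1 family raise their transcription. In skin, the fat layer of the dermis, sebaceous glands, the thin muscle sheet below the fat and the epidermis all use or handle fatty acids.

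Values are normalised reads, the deposited counts divided by a size factor for each library, and a pair of values gives the libraries of one group in the order of their numbers. Each change is given on the scale of log2(normalised reads + 1), with its standard error (SE), from 1 limma fit of all 8 groups, and a gene was called at an adjusted p of 0.05. No label ties the libraries of 1 group to separate animals, so the p-values speak of the spread among these libraries alone, and it may be technical. Libraries held 15199656 to 32066246 recovered reads. Those of day 5 stood apart, with 19885 to 20774 genes detected against 22875 to 23740 on the other days, and with 10.3 to 14.8% of reads in their 10 highest genes against 4.91 to 7.06%. In a test on simulated data for day 1 of SDS alone, over 19606 genes, 47 of 67 changes of 1.5-fold were recovered, 61 of 67 of 2-fold and 65 of 66 of 4-fold. Only these genes were changed there, none of them low in reads, equally up and down and with independent counts. The shares recovered therefore need not hold for low genes or for comparisons in which many genes change.

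The promoters are shown first for the members in which letters of a PPAR site were found. The window searched was the 250 bases before and 50 bases after the gene start from RefSeq (GRCm38.p6), which was held for 25 of the 32 genes. The motif was the direct repeat, AGGTCA, 1 base, AGGTCA again, on both strands, with at most 2 mismatches at its 12 fixed letters. It was present in 4 of the 25 genes and in 3.86% of the 32851 windows of all genes. Capitals mark the match in 29 bases of the gene strand, 5′ to 3′; in Etfa the repeat reads on the other strand.
Slc25a20, chr9:108662134-108662162, plus strand: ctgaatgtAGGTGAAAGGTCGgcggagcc
Echs1, chr7:140116484-140116512, minus strand: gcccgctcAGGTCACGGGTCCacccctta
Etfa, chr9:55512300-55512328, minus strand: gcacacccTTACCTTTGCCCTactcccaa
Acox2, chr14:8258810-8258838, minus strand: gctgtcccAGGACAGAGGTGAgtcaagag
The matches start at +6 (Slc25a20), -83 (Echs1), -77 (Etfa) and +9 (Acox2), counted from the start base as 0. The estrogen related receptor motif TCAAGGTCA, with no mismatch, was in none of the 25 and in 0.423% of all windows. The glucocorticoid receptor motif (AGAACA, 3 bases, TGTTCT, at most 2 mismatches) was in none of the 25 and in 1.84% of all. These are descriptions of letters in a short window.

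In SDS alone, the genes split at day 1, most rose at day 3 and most fell at day 5. From day 0 to day 1, 10 of the 32 were higher and 10 lower, where 12.8% of all genes tested were called higher and 13.5% lower. From day 1 to day 3, 20 were higher and 3 lower (all genes 23.6% and 18.6%), with a median log2 change of 0.34 in the 32 against 0.04 in all genes. From day 3 to day 5, 5 were higher and 22 lower (all genes 28.9% and 34.5%), with medians of -0.45 and -0.07. By log2 change, Acot2 (1.89), Ppargc1a (0.97), Eci2 (0.91) and Acadl (0.51) led the higher genes at day 1 and Acaa1b (-3.69), Acox2 (-1.56), Acox3 (-1.19) and Hadh (-0.67) the lower ones. From day 1 to day 3 the higher genes were led by Ehhadh (4.58), Acaa1b (2.46), Acox2 (1.04) and Ppargc1b (0.88), and the lower ones were Ppargc1a (-0.86), Decr2 (-0.67) and Acox3 (-0.44). From day 3 to day 5 Acox2 (1.95), Hadh (0.88), Decr2 (0.69) and Acaa1a (0.51) led the higher genes and Ehhadh (-4.65), Cpt1b, Acaa1b (-2.86) and Ppargc1a (-2.05) the lower ones. Of the 23 calls between days 1 and 3, 19 held under all 24 alternative settings, and of the 27 between days 3 and 5, 26 held under all 23 that could be run.

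Between day 0 and day 5 of SDS alone, 13 of the 32 were higher and 11 lower (all genes 30.7% and 35.8%), and the share higher depended on the scaling. Against day 0, Acox2 (1.43), Ppargc1b (0.92), Acot2 (0.72) and Acadl (0.61) led the higher genes and Acaa1b (-4.09), Crat (-1.98), Ppargc1a (-1.95) and Acox3 (-1.45) the lower ones. Scaled to total reads instead of the deposited size factors, the split was 4 higher and 17 lower, since this scaling moves the median of all genes by -0.33 on the log2 scale. The summed level of the 32 genes in SDS alone, by day, was 47330.1 ± 719.6, 45824 ± 582, 59778 ± 724 and 43417 ± 1389 normalised reads (SD, n = 2). Day 3 was thus the highest of the 4 days and its libraries lay above those of every other day.

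With Topsym, most of the genes rose at day 1. From day 0 to day 1, 21 were higher and 3 lower (all genes 20.3% and 20.5%), with a median log2 change of 0.60 against -0.03 in all genes. From day 1 to day 3 the calls were 12 higher and 9 lower (22.1% and 22.9%), and from day 3 to day 5 they were 8 higher and 18 lower (27.1% and 35.1%). For day 5 against day 0 they were 20 higher and 10 lower (32.8% and 37.5%). At day 1 Cpt1b, Acot2 (2.37), Acot1 (1.43) and Hadhb (1.21) led the higher genes, and the lower ones were Acaa1b (-1.37), Acaa1a (-0.33) and Hadh (-0.16). From day 1 to day 3 Ehhadh (3.36), Acaa1b (2.28), Acox2 (1.36) and Ppargc1b (0.72) led the higher and Acox3 (-1.07), Acot2 (-0.82), Decr2 (-0.50) and Acadm (-0.44) the lower. From day 3 to day 5 Etfb (1.57), Acox2 (1.47), Acaa1a (1.16) and Hadh (0.80) led the higher and Ehhadh (-4.61), Acaa1b (-3.16), Ppargc1a (-1.97) and Eci1 (-1.45) the lower. Day 5 stood against day 0 with Acox2 (3.95), Cpt1b, Acot1 (1.52) and Etfb (1.46) leading the higher and Acaa1b (-2.25), Ppargc1a (-1.65), Acox3 (-1.003) and Eci1 (-0.90) the lower, and no log2 change is given for Cpt1b because of its low reads. Scaled to total reads, the last 2 splits became 4 higher and 23 lower, and 7 higher and 18 lower. The summed level was 35530 ± 1139, 51919 ± 91.3, 53905 ± 74.0 and 46326 ± 282 at days 0, 1, 3 and 5.

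Markers of other tissue also differed between the groups, some with the 32 genes and some against them. The summed level of 16 skeletal muscle genes was 534212, 393222, 507549 and 101933 from day 0 to day 5 in SDS alone and 183490, 584711, 247562 and 160765 with Topsym. All 15 of the muscle genes tested were lower with Topsym than without at day 0 (all genes 11.2%). All 15 were higher at day 1 than at day 0 with Topsym (all genes 20.3%). Most of the 32 genes went the same way in both comparisons. At day 1 of SDS alone all 15 were lower (all genes 13.5%), where the 32 split evenly. From day 1 to day 3 with Topsym all 15 were lower again (all genes 22.9%), where 12 of the 32 were higher and 9 lower. The 10 adipocyte genes summed to 67630.4, 61994, 87093 and 8508 in SDS alone and to 32234, 74195, 64100.3 and 9495 with Topsym. All 10 were lower from day 3 to day 5 in each arm (all genes 34.5% in SDS alone and 35.1% with Topsym). Myh7 of the muscle list was at 0 at day 3 of SDS alone and at day 5 with Topsym, and Lep of the adipocyte list at day 5 with Topsym. The 7 sebaceous genes were all lower with Topsym at day 0 (all genes 11.2%), and summed to 82001 without and 39234 with it. All 4 brown adipocyte genes tested were also lower with Topsym at day 0. With Topsym, all 4 were higher at day 1 than at day 0 (all genes 20.3%). Of skin itself, 6 basal keratinocyte genes summed to 348693, 320256, 239191 and 868624 in SDS alone and to 366958, 279023, 601500 and 1259540 with Topsym. From day 3 to day 5, 5 of the 6 were higher and 0 lower in SDS alone (all genes 28.9% and 34.5%). With Topsym 2 were higher and 4 lower (27.1% and 35.1%) although the sum went up. The 6 differentiating keratinocyte genes summed to 447556, 354468, 171520 and 1043500 in SDS alone and to 450617, 352015, 252457 and 1630160 with Topsym. All 6 of these were higher from day 3 to day 5 in each arm. The 5 neutrophil genes summed to 286, 849.5, 55870.1 and 266464 in SDS alone and to 385, 843, 2519 and 36327 with Topsym. Of these 5, 2 were higher and 3 lower from day 3 to day 5 of SDS alone (all genes 28.9% and 34.5%). Their median log2 change was -1.35, so the larger sum at day 5 does not stand for the list. The 5 endothelial genes summed to 2504, 2798, 8168 and 844 in SDS alone, with 4 higher and 0 lower from day 1 to day 3 (all genes 23.6% and 18.6%). All 5 endothelial, all 5 macrophage and all 6 fibroblast genes were lower from day 3 to day 5 in each arm, as most of the 32 were. Of all genes, 34.5% were lower there in SDS alone and 35.1% with Topsym. At day 0, all 5 macrophage genes were higher with Topsym than without, and 4 of the 6 fibroblast genes were higher and 1 lower. Of the 32, 21 were lower at day 0 and 0 higher (all genes 11.2% lower and 10.8% higher). In bulk tissue, fewer cells of a type and less RNA per cell cannot be told apart, and the part of these shifts in the results was not tested.

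**Figure D1:**
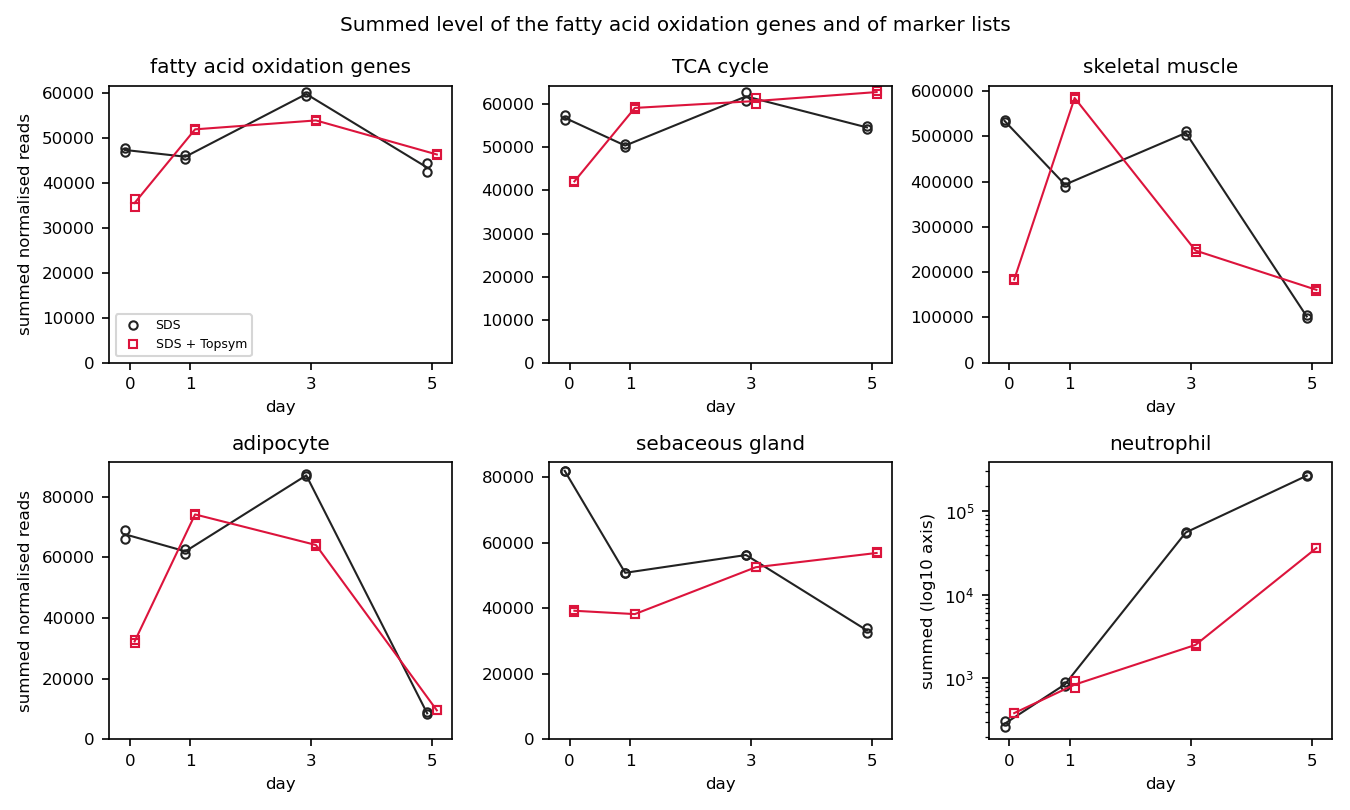
Summed normalised reads (y axis; log10 axis for neutrophils) of the 32 genes and of marker lists by day (x axis) in both arms, with points for libraries. The sum of the 32 genes lies between 34724 and 60289 in all libraries, while the muscle and adipocyte sums are lowest at day 5 of SDS alone. The neutrophil sum climbs to day 5, where 2 of its 5 genes were higher and 3 lower than at day 3 of SDS alone.

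**Figure D2:**
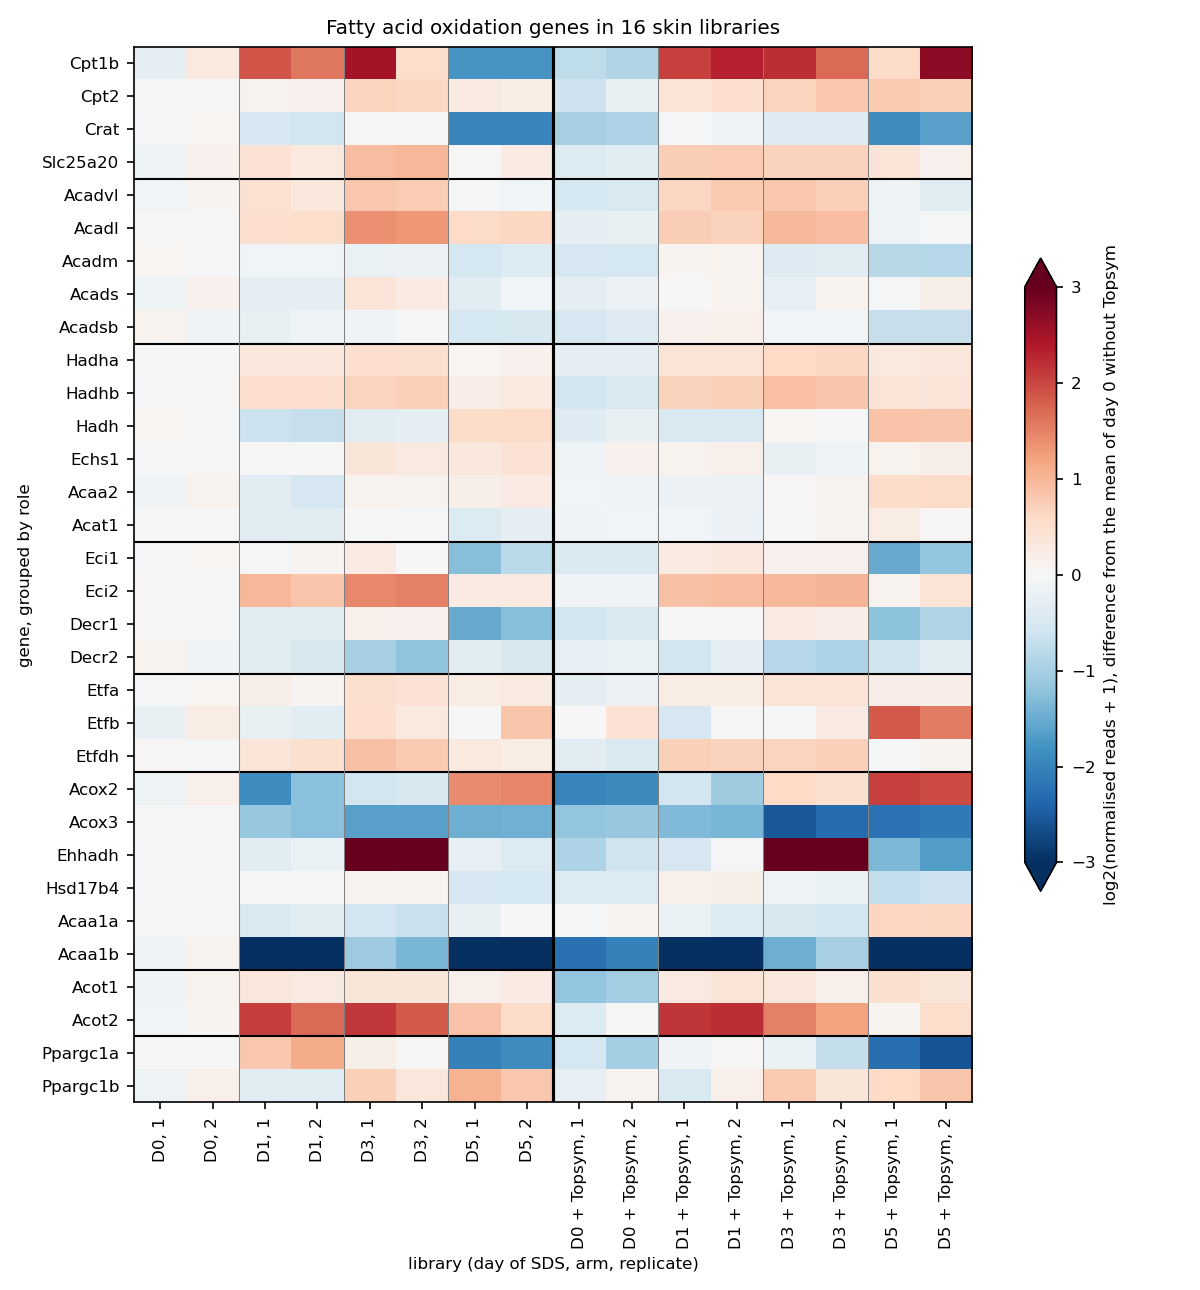
Each row is 1 of the 32 genes, grouped by role, and each column 1 of the 16 libraries; the colour is log2(normalised reads + 1) minus the mean of day 0 without Topsym, limited to 3 either way. Ehhadh turns dark red in the day 3 libraries of both arms, Acaa1b is blue in all libraries but those of day 0 without Topsym and Acox2 turns from blue to red with Topsym.

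**Figure D3:**
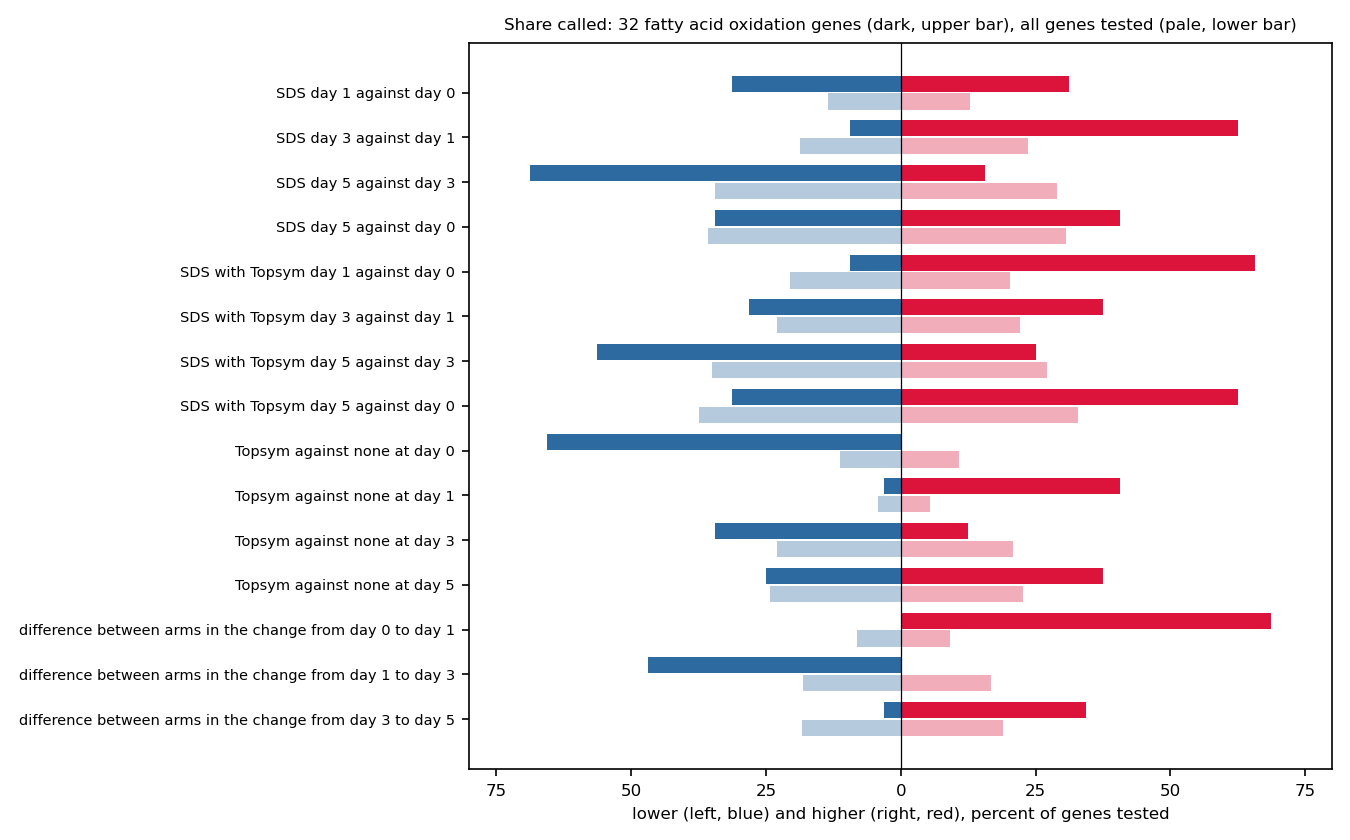
Bars give the percent of genes called higher (right, red) and lower (left, blue) in each of the 15 comparisons, dark for the 32 fatty acid oxidation genes and pale for all 19189 genes tested. The dark bars reach furthest past the pale ones for day 1 against day 0 with Topsym, for Topsym against none at day 0 and for the difference between arms in the change from day 0 to day 1.

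Counts for single genes covered a wide range. The ratio of the highest to the lowest of the 8 group means was at least 4 in 6 genes (Acaa1b, Acox2, Acox3, Acot2, Ehhadh and Ppargc1a), 2 to 4 in 16, and under 2 in 9; Cpt1b had a group at 0 and no ratio. Day 3 of SDS alone held the highest mean of 9 genes and day 5 with Topsym that of 8. Day 0 with Topsym held the lowest mean of 12 genes and day 5 with Topsym that of 7. Per kilobase of annotated exon, Acaa2 was the highest of the 32 at day 0 of SDS alone, at 1628 normalised reads, followed by Acadl at 1122 and Etfa at 1094. At day 3 Acadl led at 2838, and Ehhadh ranked 4 at 1185. Exon length here counts every annotated transcript, so genes with many retained introns read low on this scale.

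The carnitine shuttle brings long chains into the mitochondrion. Slc25a20 encodes the translocase that exchanges acylcarnitine for carnitine across the inner membrane. It stood at 726 and 863 normalised reads at day 0, 1072 and 964 at day 1, 1493 and 1590.1 at day 3 and 809.5 and 934 at day 5 of SDS alone, and at 599 and 631 normalised reads at day 0, 1312 and 1338 at day 1, 1284 and 1273 at day 3 and 1037 and 861 at day 5 with Topsym. Both libraries of day 3 lay above all others of SDS alone, and with Topsym the low libraries were those of day 0. Cpt2, the enzyme that returns the acyl group to coenzyme A inside the matrix, stood at 682 and 664 normalised reads at day 0, 721 and 734 at day 1, 1071 and 1037 at day 3 and 817 and 785 at day 5 of SDS alone. With Topsym it stood at 440.3 and 572 normalised reads at day 0, 893 and 959.6 at day 1, 1063 and 1186 at day 3 and 1156 and 1110.3 at day 5, so that the day 5 libraries lay within the range of day 3. Between days 3 and 5, Cpt2 fell in SDS alone by 0.40 on the log2 scale (SE 0.10, limma adjusted p = 0.00238) and with Topsym differed by 0.01 (adjusted p = 0.925). The difference between the arms in that change was 0.41 (adjusted p = 0.0307), a call that was lost in 8 of 23 alternatives.

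Crat, which moves acetyl and other short groups onto carnitine and buffers coenzyme A, had another course. Its means were 3993, 2759.9, 4037 and 1012 from day 0 to day 5 in SDS alone and 2043, 3740.4, 3054 and 1196 with Topsym. It fell at day 1 of SDS alone (log2 -0.53, limma adjusted p = 1.04e-05), rose at day 1 with Topsym (0.87, 1.56e-08), and was at its lowest at day 5 in both arms. Day 5 against day 0 of SDS alone was log2 -1.98, SE 0.07, limma adjusted p = 1.22e-13, a 3.95-fold lower mean. Cpt1b, the muscle form of the enzyme that makes acylcarnitine, had very few reads. It stood at 1.76 and 3.21 normalised reads at day 0, 11.7 and 9.23 at day 1, 18.3 and 3.89 at day 3 and 0 and 0 at day 5 of SDS alone, and at 1.01 and 0.813 normalised reads at day 0, 13.1 and 16.2 at day 1, 14.7 and 10.1 at day 3 and 4.03 and 20.8 at day 5 with Topsym. Both day 5 libraries of SDS alone had 0 reads, against 26 reads (22 and 4) in the day 3 libraries. The day 3 mean was 5.21-fold a floor of 3 reads over the group, and it rests mainly on 1 library. The 2 reads at day 0 with Topsym and the 37 at day 1 give a ratio of 16.4 with a 95% exact counting interval of 4.22 to 140. Of the recovered counts from 1 to 20, 69.9 to 76.8% per library were even, so reads may not be independent counts, and this interval and the floor may be too narrow even for counting error. Of the exon bases annotated for Cpt1b, 81.4% are shared with another gene model, Gm44502, on the same strand. Gm44502 is not among the genes with deposited values, and the sources used here do not say how reads in shared exons were assigned. The level of Cpt1b and its changes are therefore uncertain.

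Acyl-CoA dehydrogenases take the first step of each turn and differ in the chain length they prefer. The enzymes for the longest chains rose from day 0 to day 3. Acadvl, for very long chains, stood at 981 and 1117 normalised reads at day 0, 1446 and 1303 at day 1, 1821 and 1788 at day 3 and 1007 and 986 at day 5 of SDS alone, and at 727 and 766 normalised reads at day 0, 1608 and 1802 at day 1, 1825 and 1723 at day 3 and 970.1 and 819.5 at day 5 with Topsym. In both arms the days 1 and 3 libraries were above those of days 0 and 5. Of its exon bases, 42.9% are shared with Dvl2 on the opposite strand (302 to 647 normalised reads), and without the strand setting of the counting, reads of the 2 genes cannot be told apart there. Acadl, the long-chain enzyme, stood at 2237 and 2264 normalised reads at day 0, 3184 and 3248 at day 1, 5823 and 5559 at day 3 and 3372 and 3482 at day 5 of SDS alone, and at 1829 and 1939 normalised reads at day 0, 3744 and 3613 at day 1, 4384 and 4308 at day 3 and 2023 and 2168 at day 5 with Topsym. Its mean at day 3 was 2.53-fold that of day 0 in SDS alone and 2.31-fold with Topsym, against 1.72-fold and 2.38-fold for Acadvl, and in SDS alone the libraries of the 4 days did not overlap for Acadl. From day 0 to day 1 it rose by 0.51 (SE 0.05, limma adjusted p = 9.43e-07) and from day 1 to day 3 by 0.82 (0.05, 1.15e-09). At day 5 it was lower with Topsym than without (log2 -0.71, SE 0.05, limma adjusted p = 1.45e-08).

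The enzymes for shorter chains moved less. Acadm, for medium chains, stood at 2853 and 2588 normalised reads at day 0, 2578 and 2569 at day 1, 2367 and 2402 at day 3 and 1874 and 2035 at day 5 of SDS alone, and at 1928 and 1886 normalised reads at day 0, 2883 and 2906 at day 1, 2084 and 2197 at day 3 and 1535 and 1497 at day 5 with Topsym. It drifted down in SDS alone, where day 5 was 0.48 lower than day 0 on the log2 scale (limma adjusted p = 1.81e-06), and was highest at day 1 with Topsym. Acads, for short chains, stood at 511 and 606 normalised reads at day 0, 459 and 461 at day 1, 726 and 657 at day 3 and 437 and 522 at day 5 of SDS alone, and at 450.4 and 493 normalised reads at day 0, 550.5 and 599 at day 1, 472 and 595 at day 3 and 541 and 633 at day 5 with Topsym. In SDS alone the day 3 libraries were above all others, while with Topsym days 1, 3 and 5 overlapped. It rose from day 1 to day 3 of SDS alone (log2 0.58, limma adjusted p = 0.00143) and fell to day 5 (-0.53, 0.0018). Acadsb, for short branched chains, had means of 1544, 1384, 1486 and 1084 in SDS alone and 1128, 1706, 1461 and 952 with Topsym, lowest at day 5 in both arms. Over the 5 dehydrogenases, 3 were called higher and none lower from day 1 to day 3 of SDS alone (all genes 23.6% and 18.6%). All 5 were lower from day 3 to day 5 of SDS alone (all genes 34.5%). With Topsym 4 were higher and 0 lower from day 0 to day 1 (all genes 20.3% and 20.5%).

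The trifunctional protein carries out the last 3 steps for long chains at the inner membrane. Hadha, its alpha subunit, stood at 5699 and 5704 normalised reads at day 0, 7119 and 7048 at day 1, 8119 and 7979.8 at day 3 and 5911 and 6193 at day 5 of SDS alone, and at 4704 and 4624 normalised reads at day 0, 7598 and 7589 at day 1, 8695 and 8704 at day 3 and 7027 and 7213 at day 5 with Topsym. Hadhb, its beta subunit, stood at 1634 and 1727 normalised reads at day 0, 2385 and 2389 at day 1, 2688 and 2736 at day 3 and 1939 and 2046 at day 5 of SDS alone, and at 1124 and 1245 normalised reads at day 0, 2719.6 and 2759 at day 1, 3126 and 3005 at day 3 and 2249 and 2192 at day 5 with Topsym. Both subunits were lowest at day 0 with Topsym and highest at day 3 with Topsym, and day 0 did not overlap with day 1 in either arm. From day 0 to day 1 Hadhb rose by 0.51 in SDS alone and by 1.21 with Topsym (SE 0.06, limma adjusted p = 5.40e-11), and the difference of these rises was 0.70 (SE 0.08, adjusted p = 9.94e-06). The 2 genes lie head to head on opposite strands of chromosome 5, where Hadha (minus strand) begins at 30155162 and Hadhb (plus strand) at 30155248 (GRCm38). Of the 50-base stretches in Hadhb transcripts, 18.1% are also found in the gene model Gm13910.

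The single enzymes of the matrix had courses of their own. Hadh, the dehydrogenase for medium and short hydroxyacyl chains, had means of 2951, 1855, 2376 and 4378 in SDS alone and 2401, 2145, 3030.2 and 5293 with Topsym. It fell at day 1 of SDS alone (log2 -0.67, SE 0.06, limma adjusted p = 1.39e-07), slightly with Topsym (-0.16, adjusted p = 0.0308), and rose from day 3 to day 5 in SDS alone (log2 0.88, SE 0.06, limma adjusted p = 5.20e-10) and with Topsym (0.80, 2.28e-09), against the direction of most members. Acaa2, the matrix thiolase, had means of 2468, 1847, 2651 and 2843 in SDS alone and 2292, 2167, 2588 and 3627 with Topsym, highest at day 5 in each arm. Scaled to total reads, its difference between days 5 and 3 with Topsym turned from 0.49 to -0.01. Acat1, which splits acetoacetyl-CoA, had means of 2185, 1759, 2176 and 1724 in SDS alone and 2040.0, 1997, 2257 and 2393 with Topsym. Echs1, the short-chain hydratase, had means of 1522, 1532, 1906 and 1971 in SDS alone and 1518, 1669, 1346 and 1680.2 with Topsym. For Echs1 the arms parted at day 3, where Topsym was lower than none (log2 -0.50, SE 0.08, limma adjusted p = 5.67e-05).

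Unsaturated chains need isomerases and reductases that move or remove double bonds. Eci2, an isomerase found in peroxisomes and mitochondria, had means of 799, 1509, 2238 and 958 in SDS alone, and rose at day 1 (log2 0.91, SE 0.09, limma adjusted p = 5.28e-07) and again at day 3 (log2 0.57, SE 0.09, limma adjusted p = 4.16e-05). With Topsym its means were 743, 1498, 1599 and 964, and day 3 against day 1 was not called (log2 difference 0.09, limma adjusted p = 0.411). Eci1, the mitochondrial isomerase, was at 642, 653, 704 and 314 in SDS alone and 475, 782, 698 and 256 with Topsym, and Decr1, the mitochondrial dienoyl-CoA reductase, at 1023, 808, 1128 and 391 in SDS alone and 714, 1020.1, 1193 and 490.0 with Topsym. Both were lowest at day 5 in each arm. From day 3 to day 5 Eci1 fell by 1.17 in SDS alone and by 1.45 with Topsym on the log2 scale (limma adjusted p = 1.08e-06 and 9.00e-08). Decr1 fell by 1.53 and by 1.29 (7.29e-10 and 8.32e-09). Decr2, the peroxisomal reductase, went the other way, with means of 453, 336, 211 and 339 in SDS alone and 389, 342, 240.4 and 327 with Topsym and its lowest value at day 3 in both arms. Its rise from day 3 to day 5 with Topsym turned to a difference of -0.06 when scaled to total reads.

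Electrons from the dehydrogenases pass through a flavoprotein of 2 subunits to a membrane oxidoreductase. Etfdh, the oxidoreductase, stood at 1436 and 1361 normalised reads at day 0, 1819 and 1938 at day 1, 2581 and 2407 at day 3 and 1703 and 1627 at day 5 of SDS alone, and at 1101 and 1022 normalised reads at day 0, 2293 and 2276 at day 1, 2209 and 2295 at day 3 and 1351 and 1483 at day 5 with Topsym. In SDS alone its day 3 libraries were above all others, and with Topsym those of days 1 and 3 were above days 0 and 5. Etfa, the alpha subunit, had means of 2008, 2195, 2745 and 2379 in SDS alone and 1706, 2333, 2659.9 and 2310.3 with Topsym. Etfb, the beta subunit, was called in few comparisons and had low counts, with means of 104, 84.4, 136 and 143 in SDS alone and 121, 89.0, 112 and 334 with Topsym. Its libraries of day 5 with Topsym, 369 and 299, lay above all other libraries, and the rise from day 3 was log2 1.57, SE 0.28, limma adjusted p = 0.000118. Of its exon bases, 53.0% are shared with the gene model Gm45233 on the same strand, so its level and its changes are uncertain.

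Peroxisomal oxidation held 4 of the 6 genes whose group means differed at least 4-fold. Ehhadh encodes the bifunctional enzyme that hydrates and dehydrogenates in the peroxisome, and is a much used marker of PPAR alpha activity in liver. Its 250 bases before the start (chr16:21787835-21788084, GRCm38.p6, minus strand, 60.4% G or C) are shown because it had the largest ratio between group means of the 31 genes with one. The closest it came to the direct repeat, in the whole window of 300 bases, was 4 mismatches, so no letters are in capitals.
Ehhadh: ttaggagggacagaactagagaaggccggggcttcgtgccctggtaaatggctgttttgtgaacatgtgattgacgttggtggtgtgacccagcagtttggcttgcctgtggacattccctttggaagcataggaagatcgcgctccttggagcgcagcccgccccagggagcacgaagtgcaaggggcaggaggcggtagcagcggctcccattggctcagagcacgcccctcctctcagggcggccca

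Ehhadh stood at 172 and 182 normalised reads at day 0, 142 and 153 at day 1, 3556 and 3509.7 at day 3 and 148 and 132 at day 5 of SDS alone. With Topsym it stood at 92.5 and 117 normalised reads at day 0, 124 and 172 at day 1, 1465 and 1559 at day 3 and 68.6 and 54.3 at day 5. In both arms the libraries of day 3 were far above every other library, and at days 3 and 5 the arms did not overlap. From day 1 to day 3 the mean rose 24.0-fold in SDS alone (log2 4.58, SE 0.17, limma adjusted p = 2.26e-12) and 10.2-fold with Topsym (log2 3.36, SE 0.17, limma adjusted p = 8.72e-11). By day 5 it was 25.3-fold lower than at day 3 in SDS alone and 24.6-fold lower with Topsym. At day 3 it was 2.34-fold lower with Topsym than without (log2 -1.22, SE 0.17, limma adjusted p = 1.60e-05), and the difference between arms in the change from day 1 to day 3 was log2 -1.21, SE 0.24, limma adjusted p = 0.000729. Each of these calls held in every alternative run.

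**Figure D4:**
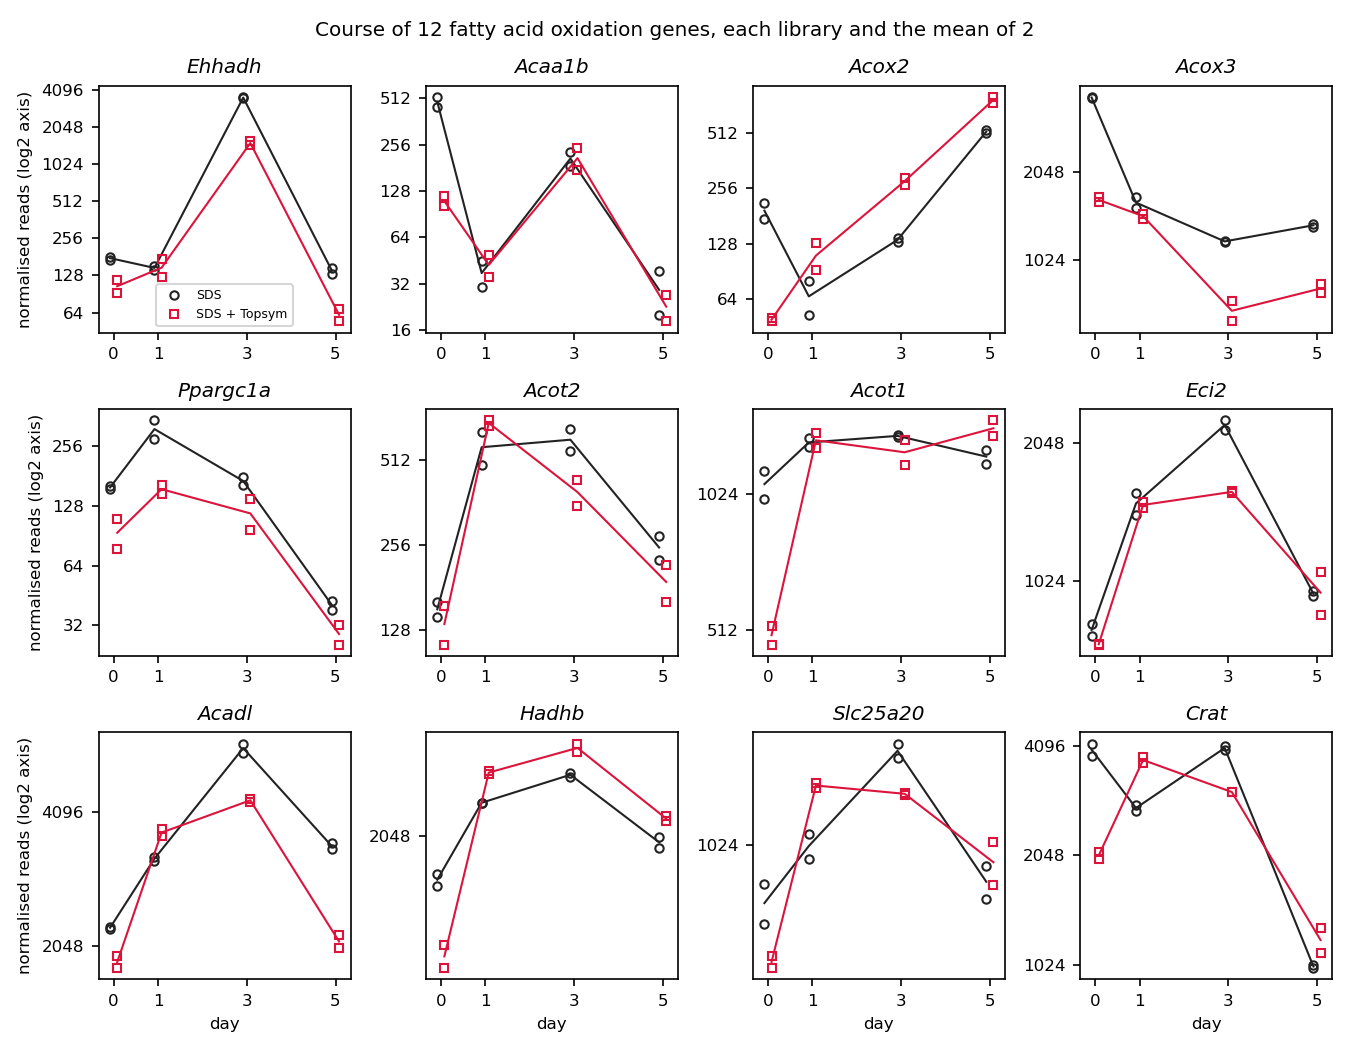
Normalised reads (y axis of each panel, log2 axis) by day of SDS (x axis) for 12 of the genes, with points for libraries and lines through the means of SDS alone and of SDS with Topsym. Ehhadh peaks at day 3 in both arms. Acaa1b is highest at day 0 in SDS alone, with a lower peak at day 3, whereas with Topsym day 3 is its highest day. Acox2 is highest at day 5 in both arms, after a fall at day 1 in SDS alone.

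The peroxisomal thiolases split. Acaa1b stood at 453 and 522 normalised reads at day 0, 44.7 and 30.2 at day 1, 229 and 188 at day 3 and 38.4 and 19.8 at day 5 of SDS alone, and at 102 and 119 normalised reads at day 0, 49.1 and 35.6 at day 1, 174 and 245 at day 3 and 18.2 and 27.2 at day 5 with Topsym. Days 1 and 5 were the low days in both arms, and the libraries of day 3 overlapped between the arms. The mean was 13.0-fold lower at day 1 than at day 0 of SDS alone (log2 -3.69, SE 0.33, limma adjusted p = 3.34e-07) and 5.56-fold higher at day 3 than at day 1 (log2 2.46, SE 0.33, limma adjusted p = 1.29e-05). Acaa1a, its close copy, stood at 2198 and 2249 normalised reads at day 0, 1625 and 1721 at day 1, 1500.1 and 1404 at day 3 and 1915 and 2236 at day 5 of SDS alone, and at 2150.2 and 2362 normalised reads at day 0, 1929 and 1667 at day 1, 1598 and 1483 at day 3 and 3469 and 3435 at day 5 with Topsym. It fell less at day 1 (log2 -0.41, SE 0.08, limma adjusted p = 0.00115) and was not called from day 1 to day 3 (log2 -0.20, SE 0.08, limma adjusted p = 0.0545). Its highest libraries were those of day 5 with Topsym (log2 0.74, SE 0.08, limma adjusted p = 1.83e-06 against none at that day). The copies share 583 of their 50-base stretches, 30.5% of those of Acaa1b and 12.4% of those of Acaa1a, so some reads could have been split between them.

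The oxidases that start peroxisomal oxidation of branched chains both fell at day 1 of SDS alone and parted from day 1 to day 3, where Acox2 rose (1.04) and Acox3 fell (-0.44). Acox2 acts on branched chains and bile acid intermediates. It stood at 174 and 214 normalised reads at day 0, 52.4 and 79.7 at day 1, 131 and 138 at day 3 and 515 and 530.0 at day 5 of SDS alone, and at 48.3 and 50.4 normalised reads at day 0, 128 and 92.0 at day 1, 292 and 269 at day 3 and 805 and 752 at day 5 with Topsym. In SDS alone the libraries of day 1 were the lowest and those of day 5 the highest, while with Topsym each day lay above the day before it with no overlap. From day 0 to day 5 with Topsym the mean rose 15.8-fold (log2 3.95, SE 0.20, limma adjusted p = 2.77e-11), and in SDS alone 2.70-fold (log2 1.43, SE 0.20, limma adjusted p = 1.08e-05). Acox3, the other branched-chain oxidase, stood at 3664 and 3681 normalised reads at day 0, 1680.2 and 1540.3 at day 1, 1185 and 1189.7 at day 3 and 1333 and 1362 at day 5 of SDS alone, and at 1612 and 1677 normalised reads at day 0, 1475 and 1419.7 at day 1, 634 and 744 at day 3 and 793 and 848 at day 5 with Topsym. It was highest at day 0 without Topsym, fell 2.28-fold by day 1 (log2 -1.19, SE 0.07, limma adjusted p = 3.42e-09), and every later library was lower than those of day 0. Hsd17b4, the bifunctional enzyme for branched chains, had means of 2559.8, 2544, 2729.7 and 1791 in SDS alone and 1927, 2856, 2272 and 1596 with Topsym, lowest at day 5 in both arms.

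The thioesterases, which release free fatty acids from coenzyme A, rose at day 1. Acot2, the mitochondrial one, stood at 143 and 160.3 normalised reads at day 0, 645 and 490.2 at day 1, 658 and 548 at day 3 and 275 and 227 at day 5 of SDS alone, and at 114 and 155 normalised reads at day 0, 677 and 706 at day 1, 435 and 353 at day 3 and 161 and 217 at day 5 with Topsym. Libraries of days 1 and 3 were above those of days 0 and 5 in both arms. The rise from day 0 to day 1 was 3.75-fold in SDS alone (log2 1.89, SE 0.19, limma adjusted p = 1.12e-06) and 5.14-fold with Topsym (log2 2.37, SE 0.19, limma adjusted p = 3.46e-08), and the difference between these, 0.48, was not called (adjusted p = 0.263). Acot1, the cytosolic one, stood at 1002 and 1157 normalised reads at day 0, 1365 and 1306 at day 1, 1386 and 1376 at day 3 and 1199 and 1285 at day 5 of SDS alone, and at 475 and 523 normalised reads at day 0, 1298 and 1403 at day 1, 1352 and 1188 at day 3 and 1495 and 1377 at day 5 with Topsym. Its 2 libraries of day 0 with Topsym were the lowest of all 16, and the later days of both arms lay close together. Acot2 shares 24.5% of its 50-base stretches with Acot1, and Acot1 13.6% with Acot2.

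The coactivators moved apart. Ppargc1a (PGC-1 alpha) stood at 161 and 156 normalised reads at day 0, 279.7 and 346 at day 1, 179 and 163 at day 3 and 38.4 and 42.5 at day 5 of SDS alone, and at 109.6 and 78.0 normalised reads at day 0, 147 and 164 at day 1, 138 and 96.5 at day 3 and 32.3 and 25.6 at day 5 with Topsym. Day 1 of SDS alone was the highest group and day 5 the lowest in both arms. The fall from day 3 to day 5 was 4.23-fold in SDS alone (log2 -2.05, SE 0.24, limma adjusted p = 1.29e-06) and 4.06-fold with Topsym (log2 -1.97, SE 0.24, limma adjusted p = 2.24e-06). The rise at day 1 of SDS alone (log2 0.97, SE 0.24, limma adjusted p = 0.00668) was not called without SDS_D1 replicate 2 (adjusted p = 0.084). Ppargc1b (PGC-1 beta) stood at 94.3 and 115 normalised reads at day 0, 81.6 and 81.4 at day 1, 172 and 131 at day 3 and 216 and 183 at day 5 of SDS alone, and at 88.5 and 112 normalised reads at day 0, 75.2 and 116 at day 1, 179 and 133 at day 3 and 159 and 187 at day 5 with Topsym. It was higher at days 3 and 5 than at days 0 and 1 in both arms, and from day 1 to day 3 of SDS alone it rose by 0.88 (adjusted p = 0.00868; 0.101 without SDS_D3 replicate 1).

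Topsym was set against none on each day. At day 0 no gene was called higher and 21 of the 32 were lower, where 10.8% of all genes were higher and 11.2% lower, and the median log2 difference of the 32 was -0.40. The largest differences were those of Acaa1b (-2.14), Acox2 (-1.94), Acox3 (-1.16) and Acot1 (-1.11), with limma adjusted p of 0.000151, 2.32e-06, 5.00e-09 and 6.22e-08. By role, 3 of 4 shuttle genes, 4 of 5 dehydrogenases, 3 of 6 later mitochondrial genes and 5 of 6 peroxisomal genes were lower. Of the 21 calls, 15 held in all 24 alternatives. These results rest on the 2 libraries of a group whose treatment is unknown.

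At day 1, 13 were higher with Topsym and 1 lower (all genes 5.51% and 4.29%). Crat (0.44) and Acox2 (0.74) were the largest of the higher, followed by Slc25a20 (0.38) and Cpt2 (0.35), and Ppargc1a was the 1 that was lower (-0.997). Of the 14 calls 1, that of Crat, held in all alternatives. Without replicate 1 of SDS_D1_Topsym 1 gene was called, without its replicate 2 there were 2, and without either library of SDS_D1 there were 4 each. With no filter 8 were called, and scaled to total reads 6.

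At day 3, 4 were higher with Topsym and 11 lower (all genes 20.8% and 22.9%). Acox2 (1.06, limma adjusted p = 0.000437), Hadh (0.35, 6.99e-05), Hadhb (0.18) and Hadha (0.11) were the higher genes. Ehhadh, Acox3 (-0.79), Acot2 (-0.62) and Echs1 led the lower ones. Without replicate 1 of SDS_D3 the count was 9 in place of 15, and Hadha, Hadhb and Acot2 lost their calls when 1 library of the groups compared was left out. At day 5, 12 were higher and 8 lower (all genes 22.6% and 24.2%), and scaled to total reads 5 were higher and 14 lower. Etfb (1.26), Acaa1a (0.74), Acox2 (0.57) and Cpt1b led the higher genes, and Ehhadh (-1.18), Acox3 (-0.72), Acadl (-0.71) and Acadm (-0.37) the lower ones. The Cpt1b mean with Topsym was 5.82-fold the floor of 3 reads. It came from 2 and 13 reads and so rests mainly on 1 library.

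**Figure D5:**
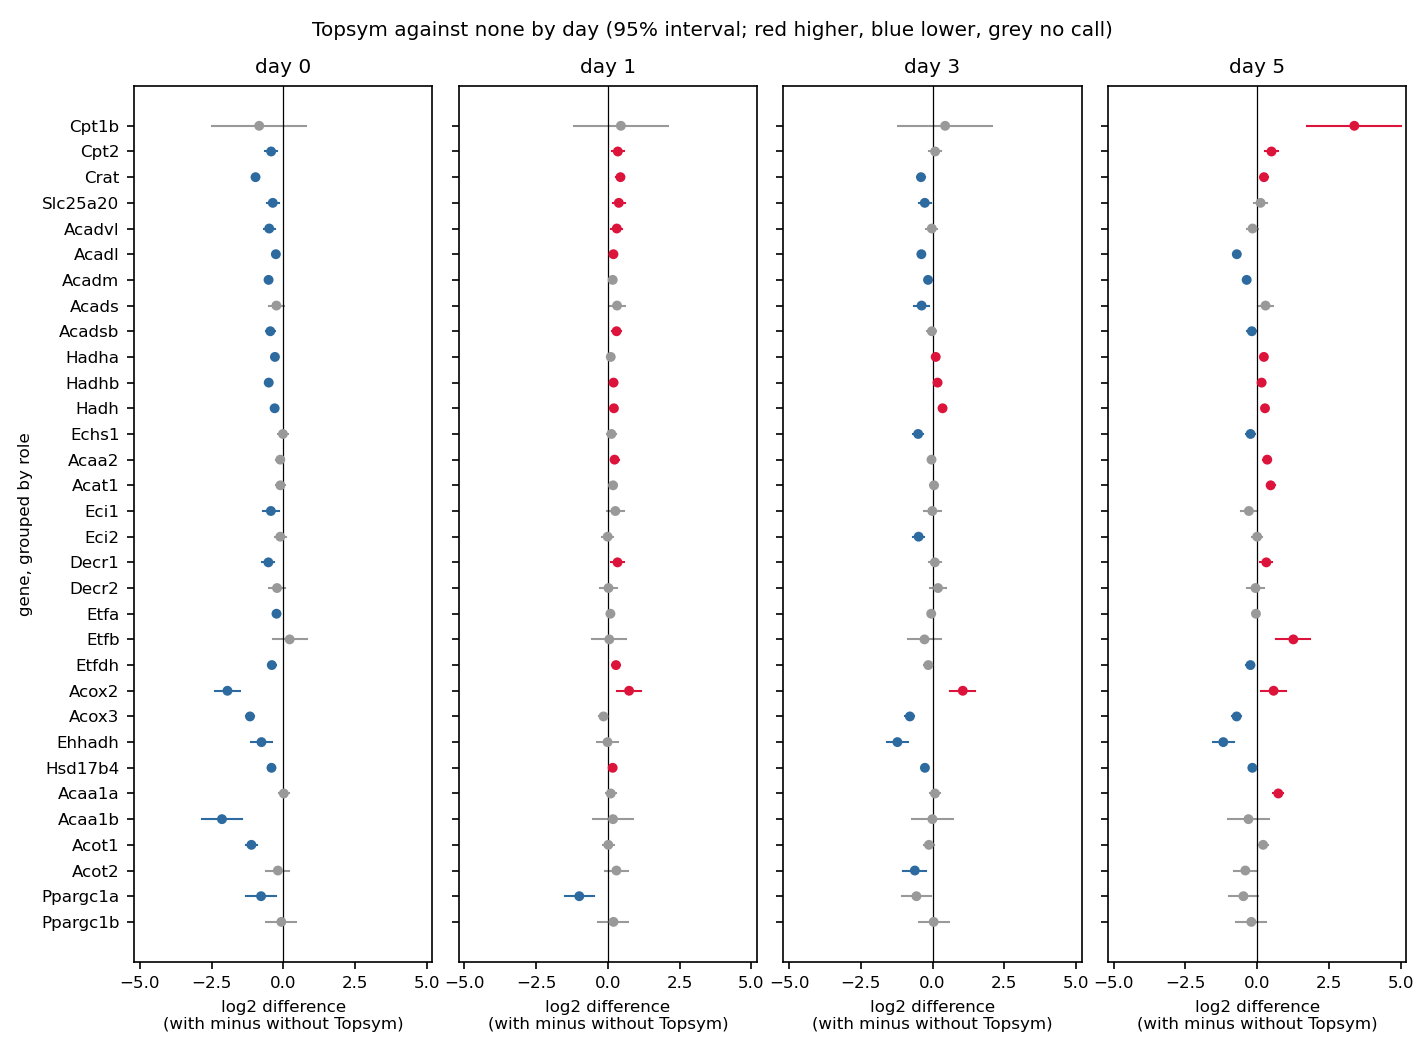
Points are the log2 difference, with minus without Topsym, of each of the 32 genes (rows) at days 0, 1, 3 and 5 (panels), and bars its 95% interval; red is called higher, blue lower, grey not called. The points at day 0 lie mostly left of 0, those of day 1 mostly right of it by small amounts, and at days 3 and 5 they lie on both sides, with Ehhadh and Acox3 on the left and Acox2 on the right.

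The change from one day to the next was compared between the arms as Topsym minus none. From day 0 to day 1 the change was more positive with Topsym for 22 genes and less so for none (all genes 9.18% and 8.06%), at a median of 0.63 for the 32 against -0.02 for all. Acox2, Acaa1b, Crat and Acot1 led these. From day 1 to day 3 it was more positive for none and more negative for 15 (16.7% and 18.2%), led by Ehhadh, Acot2 (a call lost in 3 alternatives), Crat and Acads. From day 3 to day 5 it was more positive for 11, led by Cpt1b, Etfb, Acads and Acaa1a, and more negative for 1, Acadl (19.0% and 18.4%), and scaled to total reads the split was 3 and 9. Each pair of neighbouring comparisons shares libraries, so a low group at day 0 with Topsym also enters the difference at day 1. Of the 22 calls from day 0 to day 1, 18 held in all alternatives.

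Other genes of the pathway were counted from lists. Of 10 genes of fatty acid entry and activation, 5 were higher and 2 lower from day 1 to day 3 of SDS alone (all genes 23.6% and 18.6%), and 2 were higher and 8 lower from day 3 to day 5 (28.9% and 34.5%). Cpt1a, the form of the gatekeeper enzyme in liver and skin, had means of 1150.3, 2292, 3424 and 1847 in SDS alone and 1447, 2473, 2316 and 1396 with Topsym, and Mlycd, which removes the malonyl-CoA that blocks it, 459.9, 693, 1286 and 224 in SDS alone and 401, 935, 747 and 246 with Topsym. Cpt1a was higher at day 1 of SDS alone by 0.99 (limma adjusted p = 5.10e-10). Acacb, which makes malonyl-CoA at the mitochondrion, had means of 2616, 2198, 4783 and 878 in SDS alone and 701, 3541, 3594 and 812 with Topsym. Of 15 other peroxisomal genes, 7 were higher and 2 lower from day 1 to day 3 of SDS alone (all genes 23.6% and 18.6%), where Scp2, a thiolase and sterol carrier, rose by 1.07 (limma adjusted p = 2.16e-10). Acot4, a peroxisomal thioesterase, had means of 37.5, 53.7, 164 and 77.3 in SDS alone and 18.4, 73.4, 229.7 and 45.1 with Topsym, highest at day 3 in both. Abcd2, a peroxisomal transporter of very long chains, fell from day 3 to day 5 of SDS alone by 3.37 on the log2 scale.

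Ketone body genes went several ways. Oxct1, which uses ketone bodies, was lower at day 1 of SDS alone by 0.80 on the log2 scale, and lower again from day 1 to day 3 by 0.76. Bdh1 and Acat2 were highest at day 5, with means of 362, 317, 472 and 2272 and 968, 646, 906 and 3622 in SDS alone. Of 7 other acyl-CoA dehydrogenases, some of them for amino acid breakdown, 2 were higher and 3 lower from day 3 to day 5 of SDS alone. These counts were close to the shares of all genes (28.9% and 34.5%). Acad9 rose at day 5 of SDS alone from a mean of 1031 to 3227.

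Among 12 regulators, the PPAR genes did not share a course. Ppara had means of 122, 98.2, 179 and 56.8 in SDS alone and 80.4, 133, 97.7 and 33.7 with Topsym, Pparg 369, 279.5, 614 and 94.4 in SDS alone and 179, 314, 568 and 103 with Topsym, and Ppard 1973, 2340.0, 3582 and 7953 in SDS alone and 1790.3, 2037, 5407 and 8597 with Topsym. In SDS alone Ppara and Pparg were highest at day 3 and lowest at day 5, while Ppard was highest at day 5 in both arms. At day 3, Ppara was lower with Topsym than without by 0.86 on the log2 scale (limma adjusted p = 0.00462) and Pparg differed by -0.11 (adjusted p = 0.664). Prkaa2, a catalytic subunit of the energy sensor AMPK, was lower with Topsym at day 0 by 1.40. The citric acid cycle, which burns the acetyl-CoA, was counted in 16 genes. Of these 0 were higher and 8 lower at day 1 of SDS alone (all genes 12.8% and 13.5%), and 13 were higher and 0 lower from day 1 to day 3 (23.6% and 18.6%). With Topsym against none at day 0, 0 were higher and 12 lower (10.8% and 11.2%), and with Topsym 12 were higher and 0 lower from day 0 to day 1 (20.3% and 20.5%). The sum of the 16 genes was 56902, 50434, 61872 and 54659 in SDS alone and 42109.5, 59193, 60797 and 62877 with Topsym.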

How the data were processed

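RNA of whole mouse skin was sequenced with a strand-specific SureSelect kit, per the labels' protocols, in 16 libraries. The submitters' processing notes name Trim Galore 0.6.7, HISAT2 2.2.1, featureCounts 2.0.3, DESeq2 2.11.40.8 and the build mm10. They do not give the strand setting of the counting. The deposited values are a signal scale, counts divided by a size factor per library, and whole reads were recovered for 100% of values within 1e-04. The 32 genes and the other lists were chosen with earlier results of these data known.

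Changes were fitted with limma 3.58.1 (R 4.3.3, trend) on log2(value + 1), over all 8 groups and the 19189 genes that reached 10 normalised reads in 2 or more libraries, with Benjamini-Hochberg adjustment over all of them and a threshold of 0.05. A log2 difference on this scale understates changes of low genes. Fold ratios are ratios of group means of normalised reads. Values in every library are given for genes whose highest group mean is at least 4 times their lowest and for a set of genes taken by role, and up to 4 called genes per direction are named in each comparison. Genes named from the other lists were picked after their values were seen, and some are not reported here. As alternatives, the fit was repeated with a pseudocount of 4, without the filter and with TMM scaling, and set beside edgeR 4.0.16 and DESeq2 1.42.0 on the recovered reads, a replicate block and fits without each library. Scaling to total reads and leaving out day 5 were added after seeing the data. Counting intervals and floors cover counting error at most. No protein table was used, so identity between proteins was replaced by shared 50-base stretches of transcripts. The procedure was tested on simulated data.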

Additional observations from a re-analysis of the deposited data

Results flagged for a closer look

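The change from one day to the next differed between the arms, by the interaction term of the limma fit, for 22, 15 and 12 of the 32 genes in the 3 intervals. More positive and more negative with Topsym were 22 and 0 (all genes 9.18% and 8.06%), 0 and 15 (16.7% and 18.2%), and 11 and 1 (19.0% and 18.4%). Without regard to direction, the count in the last interval was close to the share of all genes. The 13 largest of these, up to 4 per direction and interval, are given here as Topsym minus none on the log2 scale. In the change from day 0 to day 1 these were Acox2 at 2.68 (SE 0.29, adjusted p = 4.64e-06), Acaa1b at 2.32 (SE 0.47, adjusted p = 0.00227), Crat at 1.40 (SE 0.09, adjusted p = 1.29e-08) and Acot1 at 1.13 (SE 0.12, adjusted p = 4.81e-06). In all 4 the libraries of day 0 with Topsym lay below those without it. That group enters the difference by which the 4 were ranked, so this is partly fixed by the choice.

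In the change from day 1 to day 3 they were Ehhadh at -1.21 (SE 0.24, adjusted p = 0.000729), Acot2 at -0.91 (SE 0.27, adjusted p = 0.0135), Crat at -0.84 (SE 0.09, adjusted p = 1.79e-06) and Acads at -0.70 (SE 0.18, adjusted p = 0.00621). In the change from day 3 to day 5 they were Cpt1b at 2.95 (SE 1.09, adjusted p = 0.044), Etfb at 1.54 (SE 0.39, adjusted p = 0.00533), Acads at 0.67 (SE 0.18, adjusted p = 0.00783), Acaa1a at 0.65 (SE 0.12, adjusted p = 0.000281) and Acadl at -0.32 (SE 0.07, adjusted p = 0.00204). The value of Cpt1b rests on 0 reads at day 5 of SDS alone, is no bound on a fold, and was not called in 18 of 23 alternatives.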

How the results depend on the processing

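Of 314 calls on the 32 genes, 210 held under all alternatives run, 37 were lost only when a library was left out and 61 were lost when scaled to total reads. Of 7397 values, 425 kept their direction and lost the threshold, and 21 changed sign, all 21 under scaling to total reads and all in comparisons with day 5. For day 5 against day 3 these were Acox3 (-0.0748) in SDS alone and Acox3 (-0.244), Acaa2 (-0.0136), Echs1 (-0.180) and Decr2 (-0.0612) with Topsym. For day 5 against day 0 of SDS alone they were Acaa2 (-0.124), Cpt2 (-0.0799), Etfdh (-0.0795), Hadhb (-0.0855), Acot1 (-0.126), Etfa (-0.0864) and Eci2 (-0.0681). For day 5 against day 0 with Topsym they were Acadl (-0.430), Acat1 (-0.356), Etfdh (-0.167), Acads (-0.272), Acot2 (-0.0875), Acadvl (-0.326), Etfa (-0.146) and Eci2 (-0.217). For Topsym against none at day 5 it was Hadhb (-0.0751). The scaling moves the median of all genes by -0.25 (day 5 against day 3) and -0.33 (against day 0) in SDS alone, by -0.48 and -0.57 with Topsym, and by -0.23 between the arms at day 5.

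For Topsym against none at day 1, 14 of the 32 genes were called, against 8 with no filter, 6 scaled to total reads and 1 to 14 when a library was left out (9 without either library of SDS_D3). Over all genes that comparison gave 1881 calls, 2835 without the day 5 libraries, and 921 to 2228 when a library was left out (921 without replicate 1 of SDS_D1_Topsym, 924 without its replicate 2, 999 without SDS_D1 replicate 1). At day 3 the 15 calls ranged from 9 to 16 without a library. Fits without a library hold fewer libraries, whereas those with no filter or scaled to total reads hold all 16. The cause of the differing counts was not tested.

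Libraries with the same number did not deviate together (28 pairs of groups, r from -0.031 to 0.030). This cannot exclude a pairing by number, since the spread within a group may be technical. With the replicate block the counts of called members for SDS alone were 20, 24, 27 and 23 (days 1 against 0, 3 against 1, 5 against 3, 5 against 0). In the same order they were 25, 20, 26 and 30 with Topsym. They were 21, 13, 15 and 20 for Topsym against none at days 0, 1, 3 and 5, and 22, 14 and 11 for the differences between arms. Depth limits Cpt1b most, with 0 to 37 reads a group.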
